A study of Mus musculus with 6 samples.

Results

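Promoters of antisense long noncoding RNAs were compared between mouse embryonic stem cells (mESCs) and a mouse oligodendrocyte progenitor line (mOPCs) by cap analysis of gene expression (CAGE), which reads the capped 5′ ends of RNAs and so counts transcription starts at single bases with their strand.
A promoter was taken for each gene that GENCODE release M21 (mm10) types as antisense, as the 500 bp on either side of its outermost 5′ end, on its own strand.
Members were chosen on measured level, as promoters with 100 or more CAGE tags over all 6 libraries and no protein-coding 5′ end on the same strand within 500 bp.
Of 2959 antisense genes, 541 reached 100 tags, 2 of these lay within 500 bp of a same-strand coding start, and 539 (18.2%) remained.
Another 1420 genes had 1 to 99 tags and 998 had none.
The mESC group was 3 libraries of line R08, cultured without feeder cells in serum and leukemia inhibitory factor.
The mOPC group was 3 libraries of Oli-neu, a line derived from oligodendrocyte progenitors, cultured with the thyroid hormones T3 and L-thyroxine, bFGF and PDGF-BB.
Oli-neu owes its immortality to an introduced neu oncogene, which the sample titles do not state, and they give no genetic change for either line. All 6 libraries were made from nuclear RNA, and each group stands for 1 line.
The labels do not say whether the 3 libraries of a group came from separate cultures, so p-values measure the spread between these libraries, which may be technical.

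An antisense RNA is transcribed from the strand opposite to a protein-coding gene whose body it overlaps. Some antisense RNAs start in the same CpG-rich region as the coding gene and run the other way, some start in an intron, and some start past the coding gene's 3′ end, often at the promoter of the next gene, and run into it tail to tail. A few are known to act on their locus: the imprinted RNAs Kcnq1ot1 and Airn silence neighbouring genes on the chromosome they are made from, while for most others no function is established. Nuclear RNA retains unstable and chromatin-bound transcripts that are rare in whole-cell RNA.

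The following stretches show promoter regions shared by an antisense RNA and a coding gene, because 394 of the 539 members (73.1%) started within 1000 bp of a coding start on the other strand. They are RefSeq promoter sequences of GRCm38.p6, the build of the CAGE files, and were picked after the values were seen. Each is written 5′ to 3′ on the strand of the coding gene and begins 4 bases before the capitals of the most used antisense start and ends at the most used coding start. Capitals mark, for each start, the deposited tag position and the base after it in the direction of transcription.
E530011L22Rik and Zfp651, chr9:121759910-121760033, plus strand: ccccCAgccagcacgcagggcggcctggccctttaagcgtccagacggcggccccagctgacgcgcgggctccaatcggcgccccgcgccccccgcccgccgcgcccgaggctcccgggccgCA
4930525G20Rik and Gm10037, chr13:67831005-67831083, plus strand: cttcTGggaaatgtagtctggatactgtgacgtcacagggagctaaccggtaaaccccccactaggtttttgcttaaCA
2810468N07Rik and Sox8, chr17:25570686-25570833, minus strand: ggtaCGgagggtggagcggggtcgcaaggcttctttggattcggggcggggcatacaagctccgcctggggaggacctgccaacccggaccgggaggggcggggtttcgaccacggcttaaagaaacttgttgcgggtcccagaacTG
Atad3aos and Atad3a, chr4:155761093-155761225, minus strand: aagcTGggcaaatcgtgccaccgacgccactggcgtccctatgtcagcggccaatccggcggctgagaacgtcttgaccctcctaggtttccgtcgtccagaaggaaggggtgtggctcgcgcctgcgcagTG
5430402O13Rik and Cycs, chr6:50566539-50566745, minus strand: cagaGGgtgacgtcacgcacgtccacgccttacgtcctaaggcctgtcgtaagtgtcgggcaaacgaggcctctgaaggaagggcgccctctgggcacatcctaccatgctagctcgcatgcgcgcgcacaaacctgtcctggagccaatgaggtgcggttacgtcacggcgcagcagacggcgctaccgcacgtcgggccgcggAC

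Single antisense starts are shown by the 40 bases before and the 10 bases after the most used tag position, on the antisense strand, with that position and the base after it in capitals. Kcnq1ot1 had the highest level in mOPCs and Rab26os in mESCs, Gm15351 was seen in mESCs alone, and Gm16897 changed in the opposite direction to the gene it overlaps.
Kcnq1ot1, chr7:143296531-143296581, minus strand: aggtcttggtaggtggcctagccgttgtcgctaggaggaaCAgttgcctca
Rab26os, chr17:24528210-24528260, plus strand: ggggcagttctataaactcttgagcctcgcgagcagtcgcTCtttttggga
Gm15351, chr8:12915740-12915790, minus strand: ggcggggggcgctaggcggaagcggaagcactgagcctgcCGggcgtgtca
Gm16897, chr1:194976970-194977020, minus strand: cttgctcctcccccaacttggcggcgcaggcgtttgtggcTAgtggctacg

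RefSeq promoter windows covered the most used start of 239 members, and 252 members matched a window by symbol.
A pyrimidine followed by a purine, the usual pair of bases at a mammalian transcription start, stood at the deposited position and the base after it in 214 of 239 members (89.5%), against 21.9% of all neighbouring base pairs in the same 51-base windows.
It stood at the base before the deposited position and that position in 1.26% of members.
The 7543 protein-coding genes with 100 or more tags and a covered start gave 88.6% and 1.14%, so at coding and antisense starts alike the deposited position was mostly the pyrimidine, 1 base upstream of the purine at which transcription usually begins. A shift of 1 base is small beside windows of 1000 bp.
The 51-base windows of members averaged 64.9% G or C, and 92.5% held a CpG, beside 66.8% and 96.4% at the coding starts. Coverage was uneven, with 27 of 92 members inside coding genes. It was 36 of 45 among members with an opposite coding start nearby and no overlapped coding gene. Only annotated promoters are covered, and some stretches, such as that of Emx2os, were read from the coding gene's window. These values therefore describe covered members alone.
TATAAA, on either strand, was found in 2 members (0.837%) and in 2.28% of coding windows, CCAAT in 7.11% and 6.46%, and GGGCGG in 25.1% and 27.9%.
Members inside coding genes held a CpG less often in this sample, 66.7% of 27 covered starts, a count that was not tested.

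The libraries held 16657021 to 40928704 tags, and levels are given as CPM, tags per 1000000 of all tags, in the order of replicates 1, 2 and 3 of each cell type.
Summed levels of 10 pluripotency markers were 4677 to 5134 CPM in mESC libraries and 41.3 to 46 CPM in mOPC libraries. Those of 9 oligodendrocyte progenitor markers were 8.92 to 10.3 and 2468 to 2619 CPM. Of these 9, Nkx2-2 had 0 tags in all 3 mOPC libraries. The others were higher in mOPCs, but Pdgfra only at a mean of 8.33 CPM beside 5.51 CPM in mESCs.
Of 5 neuronal markers, 3 stayed under 1 CPM on average in mOPCs, while the list summed to 101 to 121 CPM there through Syt1 and Gad1. Microglial markers summed to at most 0.139 CPM.
The deposited files carry 1 library name for the 3 mESC libraries and another for the 3 mOPC libraries, so cell type and library preparation cannot be told apart.

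Antisense starts were mostly broad and often lay away from the annotated 5′ end.
The most used start lay within 50 bp of the annotated 5′ end in 282 members (52.3%), and the median distance was 45 bp.
The stretch from the 10th to the 90th percentile of tags had a median width of 147 bp (quartiles 56 and 327.5 bp), and 12 members were 20 bp wide or less.
Rab26os was among the narrowest, at 3 bp.
Median width was 217 bp for members near a coding start, 150 bp inside coding genes and 98.5 bp past a coding 3′ end.
In the 221 members with 100 tags in each cell type, the most used position was the same base in mESCs and mOPCs in 124, within 10 bp in 148, and more than 100 bp apart in 22.
Where an opposite coding start lay within 1000 bp, it was on the upstream side of the antisense start, the head-to-head layout, in 220 members and at or past it in 174, at a median distance of 134.5 bp.

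**Figure D1:**
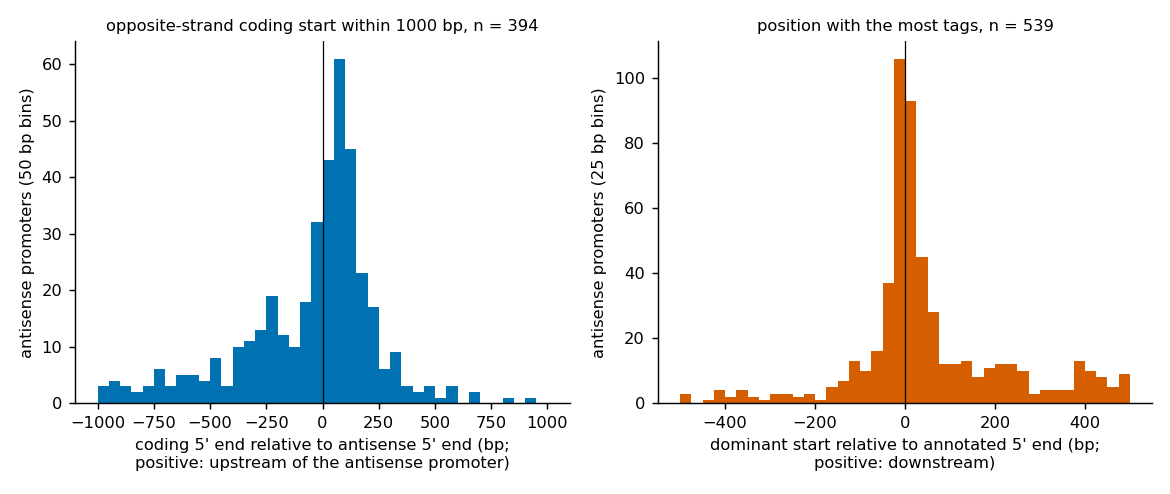
Left, position of the nearest opposite-strand coding 5′ end relative to the antisense 5′ end (bp, positive upstream of the antisense promoter) for the 394 members that have one within 1000 bp, in 50 bp bins. Right, position with the most tags relative to the annotated antisense 5′ end (bp, positive downstream) for all 539 members, in 25 bp bins; both distributions peak within 100 bp of 0, and the left one leans to the upstream side.

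More antisense promoters were higher in mOPCs than in mESCs.
At a change beyond 2-fold (edgeR test against a log2 change of 1, Benjamini-Hochberg adjusted p under 0.05), 268 of 539 members (49.7%) were higher in mOPCs and 103 (19.1%) in mESCs.
Of all 18354 promoter windows tested, 27.4% were higher in mOPCs and 34.8% in mESCs beyond 2-fold, together 62.3%.
At any size of change the test called 349 members higher in mOPCs and 133 in mESCs, 89.4% of members against 91.0% of all windows (42.2% higher in mOPCs, 48.9% in mESCs). This is a share close to that background.
The median log2 change (mOPC over mESC) was 1.23 over members, also with members at 0 tags set to their bound, and -0.18 over all windows.
All 539 members passed the filter on low counts, but 206 reach 100 tags through mOPCs alone and 90 through mESCs alone, so membership itself favours promoters that differ between the cell types.
Of the 221 members that reach 100 tags in each cell type, 83 (37.6%) were beyond 2-fold higher in mOPCs and 15 (6.79%) in mESCs. Of all 695 antisense genes tested, with no 100-tag minimum, 46.3% were beyond 2-fold higher in mOPCs and 25.5% in mESCs. The filter on low counts that these passed can also be met through a single cell type. The mOPC libraries held 91692553 tags together and the mESC libraries 72972385, so a minimum on pooled tags is met at a lower CPM in mOPCs. For 824 long intergenic noncoding RNA genes tested in the same way, the shares beyond 2-fold were 39.8% and 39.2%.
In 350 members every mOPC library was above every mESC library, in 135 the reverse held, and in 54 the groups overlapped; over all windows 91.2% did not overlap.

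**Figure D2:**
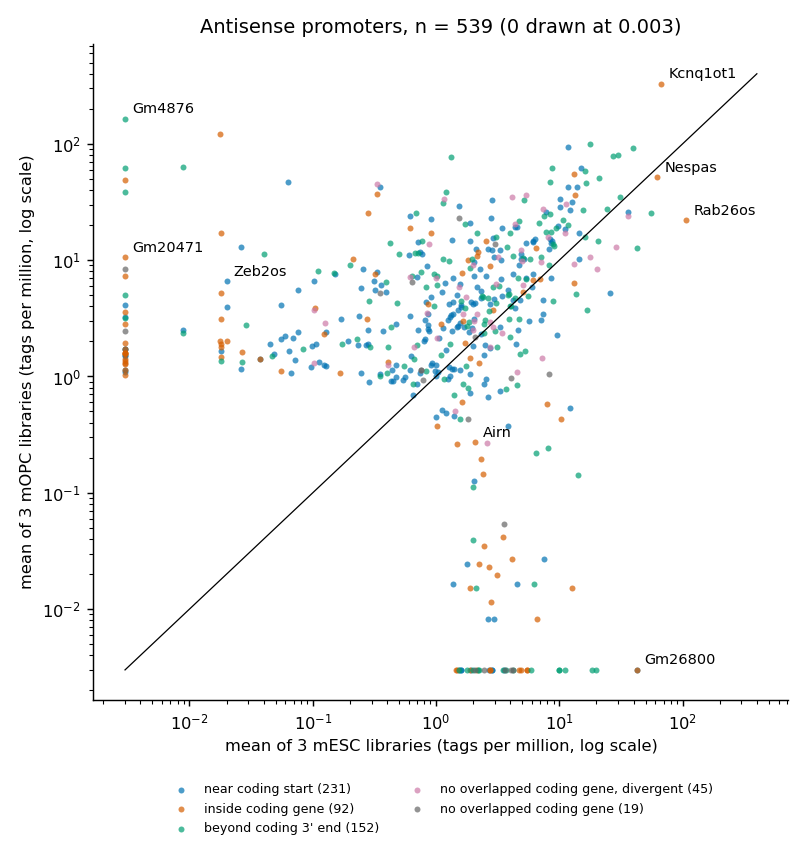
Mean CPM of the 3 mESC libraries (x axis) against the 3 mOPC libraries (y axis), both log scales, for the 539 antisense promoters, coloured by place relative to a coding gene, with the line of equal level and levels of 0 drawn at 0.003. Most points lie above the line, and 32 members at the left edge and 39 at the bottom edge had no tag in one cell type.

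All members together took 0.223%, 0.229% and 0.238% of the tags of mESC replicates 1, 2 and 3, and 0.516%, 0.514% and 0.521% of mOPC replicates 1, 2 and 3.
The groups did not overlap.
The means were 0.23% ± 0.0074 and 0.517% ± 0.00343 (SD, n = 3 each), a 2.25-fold ratio. It is a description, since the summed promoters were chosen on these tags. Over the 221 members with 100 tags in each cell type the share went from 0.175% ± 0.00572 to 0.341% ± 0.0034, a 1.95-fold ratio.
Without Kcnq1ot1, the member with the most tags, the ratio was 2.17.
Tags opposite to coding genes and over 1000 bp from any annotated 5′ end moved the same way, from 1.1% ± 0.0365 to 1.61% ± 0.0395 of all tags. The flanks of members (1000 to 5000 bp away, same strand) had a median log2 change of 1.07 beside 1.14 for the promoters of the same 465 members.
Their part in the result was not tested.
The promoters stood out locally, with at least 5 times the tags per bp of the flanks in 487 members (90.4%).
In a bulk sample, fewer transcribing cells and fewer starts per cell cannot be told apart.

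The members with the highest levels included imprinted and intronic antisense RNAs, and they did not share a direction.
Kcnq1ot1 (chr7:143203458-143296549, minus strand) starts in an intron of the potassium channel gene Kcnq1 and silences a block of imprinted genes in cis.
Its promoter gave 56.7, 66 and 78.2 CPM in mESCs and 336, 329 and 321 CPM in mOPCs, with no overlap of the groups (log2 change 2.29 ± 0.09 SE, adjusted p = 4.72e-29).
Kcnq1 itself gave 2.72, 2.52 and 2.71 CPM in mESCs and 0.182, 0.0694 and 0.0977 CPM in mOPCs, lower in mOPCs (log2 change -4.57 ± 0.34 SE, adjusted p = 7.60e-18), although the log2 change of tags over its whole body was 0.30.
Rab26os, in an intron of the small GTPase gene Rab26, had 113, 99.1 and 108 CPM in mESCs and 19.1, 23.9 and 23.4 CPM in mOPCs and was lower in mOPCs (log2 change -2.28 ± 0.09 SE, adjusted p = 8.52e-29). Rab26 had 4.22, 4.92 and 3.58 CPM in mESCs and 0 tags in all 3 mOPC libraries and was at least 129-fold higher in mESCs (adjusted p = 4.25e-23), although tags over its whole body gave a log2 change of 0.0362 that did not pass the test. Rab26os lies 310 bp from an opposite start of Traf7, a ubiquitin ligase gene, whose log2 change was 0.12 (adjusted p = 0.17).
Nespas, an imprinted antisense RNA of the Gnas locus, gave 58.6, 62.8 and 65.7 CPM in mESCs and 55.2, 50.04 and 49.7 CPM in mOPCs.
Its groups did not overlap, yet the change was small (log2 change -0.29 ± 0.09 SE, adjusted p = 0.00179), not beyond 2-fold, and did not pass without the filter on low counts (log2 change -0.16, adjusted p = 0.149).
Gnas, which encodes the stimulatory G protein alpha subunit, was higher in mOPCs over all its annotated starts (log2 change 2.01 ± 0.08 SE, adjusted p = 1.14e-28) and lower at its outermost 5′ end alone (log2 change -4.45), so its direction turned with the promoter counted.
1110002L01Rik gave 52.3, 58.7 and 54.8 CPM in mESCs and 25.7, 26.6 and 24.2 CPM in mOPCs and was lower in mOPCs (log2 change -1.13 ± 0.09 SE, adjusted p = 4.62e-17).
Its overlapped gene Kif3c, a kinesin subunit, went the other way (log2 change 3.76 ± 0.13 SE, adjusted p = 1.53e-26). Asxl2, a chromatin regulator gene that it also overlaps and whose start lies 99 bp away, was lower in mOPCs like the antisense promoter (log2 change -0.48 ± 0.09 SE, adjusted p = 1.17e-06).
E130307A14Rik gave 17.7, 16 and 19.5 CPM in mESCs and 107, 94.9 and 94.2 CPM in mOPCs and was higher in mOPCs (log2 change 2.45 ± 0.10 SE, adjusted p = 4.48e-30).
It shares a promoter region with Rev3l, the catalytic subunit of a translesion DNA polymerase, whose log2 change was 0.63 (adjusted p = 7.58e-10). Traf3ip2, the interleukin-17 signalling adaptor gene it runs into, had 22.6, 23.4 and 27 CPM in mESCs and 25, 22.3 and 21.8 CPM in mOPCs and did not pass the test (log2 change -0.09 ± 0.10 SE, adjusted p = 0.372), while the log2 change was 4.44 within 250 bp of its starts and -8.99 at its outermost 5′ end.

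The 6 members with the largest changes towards mOPCs had at most 2 tags in the 3 mESC libraries together.
Gm4876 (chr6:17065010-17171833, minus strand) starts past the 3′ end of Tes, a gene for a focal adhesion protein. As annotated it runs through the whole of Tes, including its outermost 5′ end.
It had 0 tags in all 3 mESC libraries and 185, 151 and 156 CPM in mOPCs. Gm4876 was at least 3926-fold higher in mOPCs (adjusted p = 6.16e-42).
Zfhx2os, opposite the zinc finger homeobox gene Zfhx2, had 0 tags in all 3 mESC libraries and 64.5, 59.4 and 61.4 CPM in mOPCs. Zfhx2os was at least 1496-fold higher in mOPCs (adjusted p = 7.34e-41). Zfhx2 itself had 37.1, 39.3 and 36.3 CPM in mESCs and 13.5, 11.8 and 11.2 CPM in mOPCs and was lower in mOPCs (log2 change -1.65 ± 0.10 SE, adjusted p = 1.75e-21).
Gm20687 is annotated about 1 kb downstream on the same strand and its most used start lay 492 bp upstream of its annotated 5′ end, at the edge of its window nearest Zfhx2os. Its 46.8, 32.9 and 36.3 CPM in mOPCs, with 0 tags in mESCs, are taken here as the same locus.
9630013A20Rik lies in an intron of Pcdh17, a protocadherin gene.
It had 0 tags in all 3 mESC libraries and 44.7, 46.5 and 55.9 CPM in mOPCs. 9630013A20Rik was at least 1223-fold higher in mOPCs (adjusted p = 2.18e-37), beside a rise of Pcdh17 (log2 change 5.89 ± 0.12 SE, adjusted p = 1.68e-42).
Gm29083 lies in an intron of Nrp2, a co-receptor for semaphorins and VEGF, and gave 0.0528, 0 and 0 CPM in mESCs and 117, 123 and 122 CPM in mOPCs. Gm29083 was 4413-fold higher in mOPCs (95% counting interval 1221 to 36447, adjusted p = 7.40e-45).
Gm40117, past the 3′ end of Cttnbp2nl, gave 0.0264, 0 and 0 CPM in mESCs and 64.9, 59.2 and 65.6 CPM in mOPCs. Gm40117 was 4629-fold higher in mOPCs (95% counting interval 830.4 to 182851, adjusted p = 4.94e-42).
In each of these 6 the mOPC libraries lay far above the mESC libraries. Relative to its level, Gm20687 varied most between the mOPC libraries. As it is taken as the Zfhx2os locus, the 6 are not all separate cases.

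In the opposite direction, 6 members with no tag in any mOPC library led.
Gm26800, in an intron of Tmem30c, gave 43.3, 40.7 and 43.7 CPM in mESCs and 0 tags in all 3 mOPC libraries. Gm26800 was at least 1308-fold higher in mESCs (adjusted p = 1.05e-39), while Tmem30c had 1 tag in all 6 libraries and was not tested.
Gm15351 lies within the body of Mcf2l and starts 135 bp upstream of one of its internal annotated starts, head to head with it.
It gave 39.3, 43.2 and 44.8 CPM in mESCs and 0 tags in all 3 mOPC libraries. Gm15351 was at least 1271-fold higher in mESCs (adjusted p = 1.20e-39). Mcf2l had 54.9, 59.97 and 64.5 CPM in mESCs and 43.3, 43.2 and 46.6 CPM in mOPCs (log2 change -0.44 ± 0.09 SE, adjusted p = 6.62e-06).
The Mcf2l level covers all its annotated starts, so the coding side of this promoter region alone was not measured, and the 2 changes differed (adjusted p = 3.33e-193).
Gm15283 runs into Hif1a, the oxygen-sensitive transcription factor gene, and gave 15.5, 23.6 and 20.6 CPM in mESCs and 0 tags in all 3 mOPC libraries. Gm15283 was at least 569-fold higher in mESCs (adjusted p = 1.83e-26).
The member that GENCODE types as antisense and names Trmt61b, the symbol of a tRNA methyltransferase gene, gave 18.1, 17 and 20.5 CPM in mESCs. It had 0 tags in all 3 mOPC libraries, and whether it is the promoter of that enzyme gene was not tested. Trmt61b was at least 565-fold higher in mESCs (adjusted p = 5.89e-34), and the cell cycle gene Spdya that it overlaps rose (log2 change 3.60 ± 0.22 SE, adjusted p = 1.98e-21).
Gm14024, past the 3′ end of the spindle gene Ckap2l, had 11.6, 10.7 and 10.9 CPM in mESCs and 0 tags in mOPCs, at least 343-fold higher in mESCs (adjusted p = 9.11e-31).
Srrm4os, opposite the neuronal splicing factor gene Srrm4, had 9.82, 9.37 and 10.7 CPM in mESCs and 0 tags in mOPCs, at least 304-fold higher in mESCs (adjusted p = 5.76e-30), and Srrm4 was also 278-fold higher in mESCs (95% counting interval 49.3 to 11017, adjusted p = 1.23e-20).

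The direction of each antisense promoter was set beside that of the coding gene it overlaps, by the place where it starts.
Each of 475 members that overlap a coding gene was paired with the gene of longest overlap, whose tags were taken within 500 bp of all its annotated starts.
The 5′ end lay within 1000 bp of a start of that gene in 231 members (near the coding start), inside the gene but farther from its starts in 92, and past its 3′ end in 152.
The median log2 change was 1.33, 2.14 and 1.02 in these places. They held 123 (53.2%), 51 (55.4%) and 68 (44.7%) members beyond 2-fold higher in mOPCs. Higher in mESCs beyond 2-fold were 28 (12.1%), 30 (32.6%) and 30 (19.7%). Over all windows these shares were 27.4% and 34.8%. Another 45 members overlapped no coding gene and had an opposite coding start within 1000 bp, and 19 had neither.
Of 442 pairs with both windows tested, 238 were called in the same direction and 128 in opposite directions at any change, and 148 and 60 beyond 2-fold.
Near the coding start, pairs beyond 2-fold went the same way in 86 cases and opposite ways in 12.
Inside coding genes the numbers were 38 and 20, and past the 3′ end 24 and 28. The difference between places was not tested.
As a description across pairs, which share the same 6 libraries, the Pearson and Spearman correlations of the log2 changes were 0.72 and 0.66 near the coding start (n = 229), 0.41 and 0.40 inside coding genes (n = 83), and 0.02 and 0.03 past the 3′ end (n = 130).
With both windows at 10 or more tags in each cell type, they were 0.52 and 0.47 (n = 180), 0.07 and -0.01 (n = 26), and 0.16 and 0.06 (n = 89). This minimum removes pairs with few or no tags in a cell type, among them those with the largest changes. Both correlations were lower with it near the coding start and inside coding genes, and higher past the 3′ end. Why they moved was not tested.

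**Figure D3:**
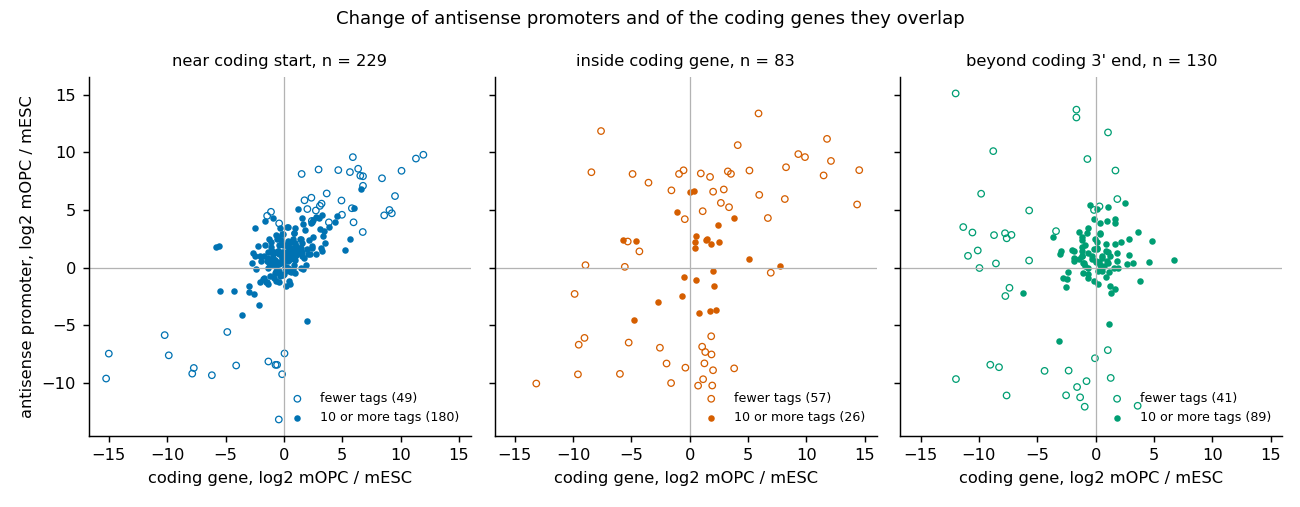
Log2 change (mOPC over mESC) of the antisense promoter (y axis) against that of the coding gene it overlaps (x axis), 1 point per pair, in 3 panels by the place of the antisense start; filled points have 10 or more tags in each cell type for both windows. Points near a coding start run along a rising diagonal (229 pairs), while those past a coding 3′ end scatter without one (130 pairs).

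A test of the antisense change against the coding change called 343 of 442 member pairs, 235 with the antisense change above the coding change and 108 below, a share near the 74.4% of all 570 annotated pairs tested, most of which are these members.
Calls above outnumbered calls below near coding starts (122 above, 47 below), inside coding genes (36 and 26) and past the 3′ end (77 and 35).
The median antisense level was 4.93% of the coding level near coding starts in mESCs and 8.95% in mOPCs.
Inside coding genes it was 8.02% and 5.61%, and past the 3′ end 11.2% and 22.3%.
CAGE counts 1 tag per captured 5′ end whatever the length of the RNA, so these levels compare numbers of starts, although coding genes with several starts were counted over more bases.

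Many antisense promoters past a coding 3′ end adjoin the start of another coding gene, and their changes were set beside those of that gene and of the gene they run into, each over all its annotated starts.
Of the 152 such members, 106 had an opposite-strand start of another coding gene within 1000 bp, and 92 of these had both coding genes tested.
In these 92, the Pearson and Spearman correlations of the antisense change were 0.64 and 0.47 with the gene at the shared promoter region, and -0.01 and -0.02 with the overlapped gene.
Beyond 2-fold, 19 went the same way as the gene at the shared promoter region and 6 the opposite way, against 11 and 16 for the overlapped gene.
The 45 members with a shared promoter region and no overlapped coding gene gave 0.65 and 0.43.
This choice of partner was made after the data were seen, and the difference between the correlations was not tested.
E530011L22Rik, whose stretch to Zfp651 is shown above, gave 0.818, 0.84 and 0.651 CPM in mESCs and 14, 16.4 and 13.4 CPM in mOPCs (log2 change 4.19 ± 0.18, SE).
Zfp651, a zinc finger gene, changed by 4.15 ± 0.17 and the overlapped Nktr by 1.63 ± 0.08.
4930525G20Rik gave 6.1, 4.62 and 7.11 CPM in mESCs and 0 tags in all 3 mOPC libraries. 4930525G20Rik was at least 184-fold higher in mESCs (adjusted p = 6.28e-25). Gm10037, its neighbour across the short stretch shown above, was also lower in mOPCs (adjusted p = 1.32e-26).
5430402O13Rik went against its neighbour: it gave 7.13, 8.46 and 10.8 CPM in mESCs and 58.1, 63.6 and 65.7 CPM in mOPCs (log2 change 2.84 ± 0.11), while Cycs, the gene for cytochrome c, fell by 1.72 ± 0.16 on the log2 scale.

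**Figure D4:**
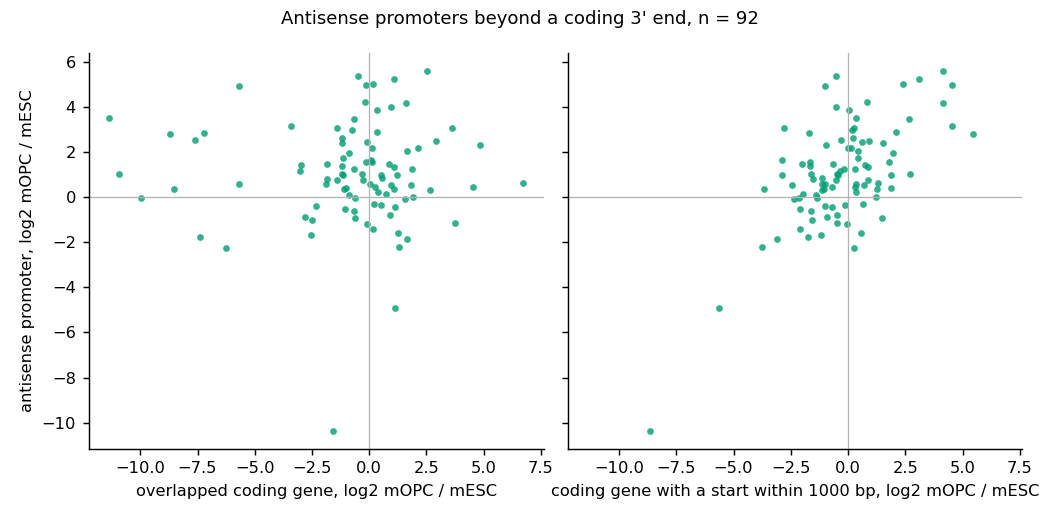
Log2 change (mOPC over mESC) of the 92 antisense promoters past a coding 3′ end that also have another coding start within 1000 bp (y axis), against the coding gene they overlap (left, x axis) and the coding gene whose start they adjoin (right, x axis). The right panel rises along the diagonal and the left panel does not; 2 members far below 0 lie at the lower end of the right panel.

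The 8 pairs with the largest changes in the same direction, 4 per cell type, had 0 antisense tags in the other cell type.
Gm20471, in an intron of the homeobox gene Prrx1, gave 0 tags in all 3 mESC libraries and 9.94, 10.9 and 11 CPM in mOPCs. Gm20471 was at least 261-fold higher in mOPCs (adjusted p = 2.39e-29), while Prrx1 gave 0 tags in all 3 mESC libraries and 14.3, 16.1 and 17.1 CPM in mOPCs. Prrx1 was at least 393-fold higher in mOPCs (adjusted p = 7.59e-32).
A830092H15Rik, near the start of the synaptic adhesion gene Nlgn1, gave 0 tags in all 3 mESC libraries and 3.65, 4.54 and 4.03 CPM in mOPCs. A830092H15Rik was at least 99.7-fold higher in mOPCs (adjusted p = 5.32e-22), and Nlgn1 was 5322-fold higher in mOPCs (95% counting interval 955 to 210230, adjusted p = 6.00e-43).
Gm15688 starts in an exon of Unc5c, a netrin receptor gene, and gave 0 tags in all 3 mESC libraries and 3.15, 3.22 and 3.35 CPM in mOPCs. Gm15688 was at least 79.3-fold higher in mOPCs (adjusted p = 2.12e-20). Unc5c had 0.0528, 0.12 and 0.109 CPM in mESCs and 235, 229 and 211 CPM in mOPCs.
Gm26673, opposite the potassium channel gene Kcna6, gave 0 tags in all 3 mESC libraries and 3.92, 3.57 and 3.25 CPM in mOPCs. Gm26673 was at least 85.4-fold higher in mOPCs (adjusted p = 6.33e-21). Kcna6 had 0.106, 0.24 and 0.109 CPM in mESCs and 142, 126 and 137 CPM in mOPCs.
On the mESC side, Adap2os gave 4.78, 5.58 and 4.23 CPM in mESCs and 0 tags in all 3 mOPC libraries. Adap2os was at least 147-fold higher in mESCs (adjusted p = 3.24e-24). Adap2, a GTPase-activating protein for Arf proteins, gave 43.6, 37.4 and 42.7 CPM in mESCs and 0 tags in all 3 mOPC libraries.
Gm17276, past the 3′ end of the receptor gene Notch3, gave 3.85, 3.48 and 3.69 CPM in mESCs and 0 tags in all 3 mOPC libraries. Gm17276 was at least 114-fold higher in mESCs (adjusted p = 2.29e-22), and Notch3 was at least 562-fold higher in mESCs (adjusted p = 1.24e-33).
Gm15222 gave 3.83, 2.94 and 3.85 CPM in mESCs and 0 tags in all 3 mOPC libraries. Gm15222 was at least 111-fold higher in mESCs (adjusted p = 7.23e-22), and the growth factor gene Bmp4 was at least 5324-fold higher in mESCs (adjusted p = 7.45e-36), but the Gm15222 window held only 2.08 times the tags per bp of its flanks.
Gm16220 gave 2.96, 2.76 and 2.55 CPM in mESCs and 0 tags in all 3 mOPC libraries. Gm16220 was at least 85.9-fold higher in mESCs (adjusted p = 4.34e-20), and Gm5134 around it was at least 106-fold higher in mESCs (adjusted p = 7.40e-22).
At Gm20471, Adap2os, Gm17276, Gm15222 and Gm16220 both windows had 0 tags in the same cell type. The test of the antisense change against the coding change could not estimate a difference there. At A830092H15Rik, Gm15688 and Gm26673 that test did not pass (adjusted p = 0.793, 0.735 and 0.535). This does not show that the changes were equal, as the antisense windows had 0 tags in mESCs.

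Other pairs switched, with the antisense promoter on in mOPCs and the coding promoter on in mESCs.
At Tes, where Gm4876 ran from 0 tags to the level given above, the coding promoter gave 16.3, 19.8 and 20.02 CPM in mESCs and 0 tags in all 3 mOPC libraries. Tes was at least 550.4-fold higher in mESCs (adjusted p = 7.06e-34).
Gm17173, past the 3′ end of the prostaglandin E2 receptor gene Ptger2, gave 0 tags in all 3 mESC libraries and 4.42, 4.85 and 5.81 CPM in mOPCs. Gm17173 was at least 126-fold higher in mOPCs (adjusted p = 1.69e-23), while Ptger2 gave 2.06, 2.1 and 1.74 CPM in mESCs and 0 tags in all 3 mOPC libraries. Ptger2 was at least 60.7-fold higher in mESCs (adjusted p = 1.28e-17).
A230108P19Rik gave 0 tags in all 3 mESC libraries and 1.19, 1.46 and 1.56 CPM in mOPCs. A230108P19Rik was at least 35-fold higher in mOPCs (adjusted p = 2.06e-14), and Echdc3 around it was at least 46.9-fold higher in mESCs (adjusted p = 1.46e-15).
Nrp2, around Gm29083, gave 4.59, 4.44 and 6.3 CPM in mESCs and 0, 0 and 0.0489 CPM in mOPCs. Nrp2 was 229-fold higher in mESCs (95% counting interval 62.9 to 1896, adjusted p = 3.80e-24). Over its whole body Nrp2 had a log2 change of -0.08 that did not pass the test.
Gm16897 gave 0.0264, 0.06 and 0 CPM in mESCs and 2.74, 2.98 and 2.61 CPM in mOPCs. Gm16897 was 101-fold higher in mOPCs (95% counting interval 27.6 to 836, adjusted p = 7.66e-19), and Cd34, a progenitor surface glycoprotein gene, was at least 126-fold higher in mESCs (adjusted p = 6.48e-23).
Atad3aos, shown above head to head with the mitochondrial ATPase gene Atad3a, gave 0.501, 0.54 and 0.217 CPM in mESCs and 12.7, 14.3 and 14.8 CPM in mOPCs (log2 change 4.96 ± 0.20 SE, adjusted p = 6.30e-29).
The overlapped Vwa1, an extracellular matrix gene, was lower in mOPCs (log2 change -5.70 ± 0.38 SE, adjusted p = 1.18e-19), although tags over the whole Vwa1 body rose (log2 change 1.93), and Atad3a fell by 0.99 on the log2 scale (adjusted p = 2.16e-15).
For these 6 pairs the groups of libraries did not overlap on either strand.

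**Figure D5:**
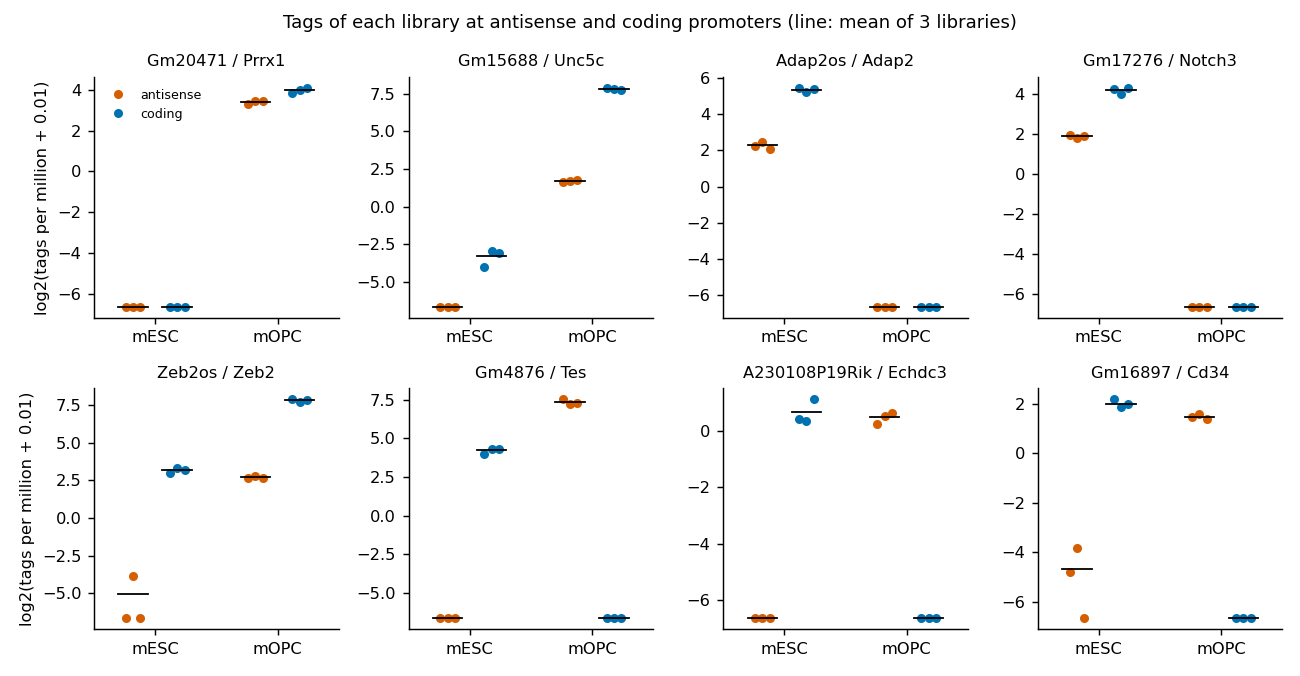
Levels of 8 pairs in each of the 3 mESC and 3 mOPC libraries, as log2(CPM + 0.01), for the antisense promoter (orange) and the coding gene (blue); points are libraries, lines are means, and points at the bottom are 0 tags. Gm20471, Gm15688 and Zeb2os rise with their coding genes, Adap2os and Gm17276 fall with theirs, and Gm4876, A230108P19Rik and Gm16897 are high where the coding gene is low.

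A list of 98 named antisense RNAs was looked up, of which GENCODE types 37 as antisense.
Of these, 13 were members, 13 had 1 to 99 tags and 11 had none.
10 of the 13 were higher in mOPCs and 3 in mESCs at any change, beside 42.2% and 48.9% of all windows. Beyond 2-fold these numbers were 9 and 2, beside 49.7% and 19.1% of all members and 27.4% and 34.8% of all windows. Most of the 9 had under 100 tags in mESCs and met the minimum through mOPCs. Their selection itself favours this direction.
Airn, the imprinted RNA that silences Igf2r, gave 2.03, 2.52 and 1.68 CPM in mESCs and 0.319, 0.277 and 0.22 CPM in mOPCs (log2 change -2.97 ± 0.31 SE, adjusted p = 8.72e-13), and Igf2r fell with it (log2 change -2.70 ± 0.09 SE, adjusted p = 3.56e-32).
Emx2os, opposite the forebrain homeobox gene Emx2, gave 0.0264, 0 and 0.163 CPM in mESCs and 46.2, 48 and 45.9 CPM in mOPCs (log2 change 9.59 ± 0.23 SE, adjusted p = 1.55e-39), a larger change than that of Emx2 by 3.69 ± 0.71 log2 (SE, adjusted p = 4.58e-07).
Zeb2os, opposite Zeb2, a transcription factor of neural and oligodendrocyte differentiation, gave 0, 0.06 and 0 CPM in mESCs and 6.43, 7 and 6.28 CPM in mOPCs. Zeb2os was 478-fold higher in mOPCs (95% counting interval 85.4 to 18891, adjusted p = 5.55e-26). Zeb2 gave 7.81, 9.85 and 9.23 CPM in mESCs and 236, 213 and 227 CPM in mOPCs.
Bcas1os1 gave 0, 0 and 0.0543 CPM in mESCs and 16.6, 17.3 and 17.6 CPM in mOPCs. Bcas1os1 was 1261-fold higher in mOPCs (95% counting interval 226 to 49854, adjusted p = 3.64e-33). Bcas1, a gene of early myelinating oligodendrocytes, gave 4.09, 3.96 and 3.64 CPM in mESCs and 2717, 2506 and 2323 CPM in mOPCs.
The Bcas1os1 window had 3.93 times the tag density of its flanks.
Uchl1os, an antisense RNA known to raise translation of the ubiquitin hydrolase Uchl1, gave 1, 1.26 and 1.09 CPM in mESCs and 5.25, 4.96 and 5.62 CPM in mOPCs (log2 change 2.25 ± 0.19 SE, adjusted p = 9.21e-16), with Uchl1 at log2 change 0.64 ± 0.16 (adjusted p = 0.00386).
The Gt(ROSA)26Sor promoter, widely used to drive transgenes, gave 21.5, 19.3 and 22.4 CPM in mESCs and 44.2, 55 and 53 CPM in mOPCs (log2 change 1.25 ± 0.10 SE, adjusted p = 1.63e-17). Within 100 bp of the annotated 5′ end the change did not pass (log2 change 0.16). That window leaves out the most used start, which lay 143 bp downstream and held 62.8% of the tags.
Tmem51os1 gave 2.27, 2.16 and 1.68 CPM in mESCs and 2.78, 3.43 and 3.1 CPM in mOPCs (log2 change 0.57 ± 0.19 SE, adjusted p = 0.00471).
Tbx3os1, opposite the T-box gene Tbx3, gave 2.98, 2.58 and 2.39 CPM in mESCs and 0, 0 and 0.0244 CPM in mOPCs. Tbx3os1 was 251-fold higher in mESCs (95% counting interval 44.6 to 9975, adjusted p = 7.76e-20). Tbx3 had 148, 145 and 156 CPM in mESCs and 0 tags in all 3 mOPC libraries.
The remaining 3, Prox1os, Vax2os and Hoxd3os1, were higher in mOPCs at 2.53 ± 0.111, 1.66 ± 0.536 and 1.13 ± 0.379 CPM (SD, n = 3), with at most 1 tag in all mESC libraries, but the windows of Vax2os and Hoxd3os1 had 1.53 and 0.355 times the density of their flanks.

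Antisense promoters opposite developmental transcription factor genes formed a group of 14 members at 13 genes, from a list of 189, and 11 of them started near the coding start.
12 were beyond 2-fold higher in mOPCs and 1 in mESCs, beside 49.7% and 19.1% of all members and 27.4% and 34.8% of all windows. Most of the 12 had under 100 tags in mESCs and met the minimum through mOPCs, so their selection itself favours this direction.
In 13 pairs with both windows tested, 11 changed beyond 2-fold in the same direction, and the others were those of Gm11266 and Gm47061. Over all members, pairs beyond 2-fold went the same way in 148 cases and opposite ways in 60 (71.2% the same). Near a coding start, where most of this group lies, the numbers were 86 and 12 (87.8% the same). The 11 include Vax2os and Hoxd3os1, whose windows had 1.53 and 0.355 times the tag density of their flanks.
2810468N07Rik, head to head with Sox8 in the stretch shown above, had 0.792, 1.68 and 1.09 CPM in mESCs and 5.79, 6.17 and 6.96 CPM in mOPCs, where its log2 change of 2.51 was smaller than the 5.65 of Sox8, a factor of glial development (adjusted p of the difference 1.89e-30).
A830082K12Rik, opposite the nuclear receptor gene Nr2f1, had 0, 0.06 and 0 CPM in mESCs and 3.56, 3.71 and 4.62 CPM in mOPCs. Nr2f1 had 0 tags in all 3 mESC libraries and 1.09, 1.98 and 1.51 CPM in mOPCs and was at least 37.9-fold higher in mOPCs (adjusted p = 1.66e-14).
Sox6os had 0 tags in all 3 mESC libraries and 1.14, 1.77 and 1.66 CPM in mOPCs, and Sox6, which acts in oligodendrocyte progenitors, changed by 10.08 (adjusted p = 4.22e-49).
Prox1os and Gm28172 both lie opposite Prox1, whose log2 change was 6.77, and are not independent.
Runx2os1 had 0.158, 0.06 and 0.163 CPM in mESCs and 1, 1.7 and 0.977 CPM in mOPCs. Gm2164, opposite Pou3f1, had 1.11, 2.16 and 1.3 CPM in mESCs and 31, 30.1 and 27.2 CPM in mOPCs.
The antisense change differed from the coding change in 8 of the 13. Gm11266 had a log2 change of 6.67 inside Nfib (adjusted p = 1.59e-37) where Nfib changed by 0.35 (adjusted p = 0.000299).
Gm47061, inside the gene for the transcription factor AP-2 alpha, Tfap2a, had 1.64, 2.16 and 1.9 CPM in mESCs and 1.87, 1.35 and 1.08 CPM in mOPCs and did not pass the test (log2 change -0.44, adjusted p = 0.0662), while Tfap2a rose by 6.94 on that scale.
At the minimum of 100 tags, Chn1os1 had 100, 4930537H20Rik 101 and Gm16143 104 pooled tags just inside, and Gm38979, Gm44987 and Gm7008 had 99 each just outside.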

How the data were processed

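Members and gene lists were chosen with earlier results of these data known. Nuclear RNA of 3 mESC (R08) and 3 mOPC (Oli-neu) libraries was measured by CAGE with random priming and cap trapping, and groups follow the sample titles. The values deposited by the authors are raw tag counts per base and strand on mm10, with no normalization. The study's methods describe tags of 21 to 27 bases mapped uniquely with bowtie, while the submitters' processing notes name BWA 0.5.9 and CASAVA 1.8, so the aligner of these files is uncertain. Unique mapping leaves out starts in near-identical repeats.

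From these counts, tags were summed within 500 bp of the outermost 5′ end of each of 55450 GENCODE M21 genes (for coding genes, of all transcript 5′ ends). The whole table was fitted with edgeR 4.0.16 (quasi-likelihood, robust, TMM on total tags, filterByExpr) in R 4.3.3, adjusted by Benjamini-Hochberg at 0.05 over 18354 windows. glmTreat tested changes beyond 2-fold, a rule added after most windows were seen to be called. Pairs were tested by an interaction term with library as block. Both fits were tested on simulated data. DESeq2 1.42.0 was an alternative. CPM are tags per 1000000 of all tags. A cell type at 0 tags was set to a floor of 3 counts over its libraries, and 1 to 3 tags gave a ratio with an exact 95% binomial interval; intervals and floors cover counting error only, as tags carry no molecular identifiers.

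Genes were named by rule: the 6 largest changes per direction with groups apart and 1 CPM or more, the 4 highest levels per cell type, of pairs with both windows called, the 4 per cell type with the largest changes in the same and the 6 in opposite directions, the list of known antisense RNAs, and partners on the transcription factor list. The promoter stretches and the members shown in them were chosen after their values were seen. Depth was 16657021 to 40928704 tags per library, and replicates were not duplicates (chi-square per degree of freedom over windows 4.67 to 11.9). Left out were antisense genes under 100 tags, except in counts.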

Additional observations from a re-analysis of the deposited data

How the results depend on the processing

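Of 133 recomputed counts, shares and ratios, 128 stayed within 1.5 times the reported value or kept their direction. Leaving out each library in turn gave 343 to 357 members higher in mOPCs, 132 to 135 higher in mESCs, 234 to 240 pairs in the same and 123 to 131 in opposite directions, 328 to 339 pairs whose changes differ, and a ratio of tag shares of 2.21 to 2.29. At 200 pooled tags, 278 members were higher in mOPCs and 88 in mESCs among 406, fewer members by construction. At 50 pooled tags the counts were 409 and 188 among 683. Calls beyond 2-fold left 148 pairs in the same and 60 in opposite directions with edgeR, and 138 and 46 with DESeq2. The replicate numbers did not pair the libraries (correlations of deviations 0.0118, 0.063, 0.0163), and with the replicate block 347 members were higher in mOPCs, 131 in mESCs, with 239 and 125 pairs and 340 differing pairs.

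Of 1250 recomputed single changes, 1239 kept direction and call. Reversed were coding genes counted otherwise: over the whole body Rab26 0.0362, Kcnq1 0.30 and Vwa1 1.93, at its outermost start Gnas -4.45, and Traf3ip2 4.44 within 250 bp and 6.26 within 100 bp (log2), with other starts counted in each case. Nespas lost its call without the filter on low counts. Other scalings gave medians over all windows of -0.22 to -0.16 log2. The depth of a cell type with 0 tags limits every such fold to a lower bound.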
